A study of Mus musculus with 12 samples.

Results

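The genes described here mostly encode subunits of the 5 oxidative phosphorylation complexes and were taken by name from RNA-seq tables of mammary tissue. Names starting with Ndufa, Ndufb, Ndufc, Ndufs, Ndufv, Uqcr, Cox4 to Cox8 or Atp5, together with Sdha to Sdhd and Cyc1, were kept where both sets of deposited tables held them. Assembly factors named Ndufaf, Cox7a1, Cox8b, pseudogenes and joined names were left out. This gave 82 of 23301 shared names, with 37 in complex I, 4 in complex II, 9 in complex III, 16 in complex IV and 16 in complex V. Ndufa10 had a row of its own only in the Normal and Tumor tables and Atp5g2 only in the DMSO and C646 tables, so neither is described. The prefixes also took 3 names that are no subunit, namely Atp5s, Atp5sl and Cox7a2l. Ndufa4, counted here with complex I by its name, is known as a subunit of complex IV.

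The 12 samples, all of female mice 12 weeks old, formed 4 groups of 3. Normal samples were mammary glands of FVB wild type mice, each a pool of the abdominal and inguinal glands of 3 mice. Tumor samples were untreated thoracic tumors of MMTV-PyVT mice, 1 mouse each, in which the MMTV promoter drives the polyoma middle T oncogene in the mammary epithelium. DMSO and C646 samples were tumors of MMTV-PyVT mice injected with vehicle or with C646, an inhibitor of the acetyltransferase p300, and the labels give 1 mg/kg for both. Between Normal and Tumor the genotype, the position of the gland and the pooling of mice all differ, so what each contributes cannot be told apart. The tables give FPKM, sequenced fragments per kilobase of transcript, scaled to the fragments of the library. The Normal and Tumor tables list other genes than the DMSO and C646 tables, so tests were run only within a set, and levels set side by side across the sets were made separately.

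Oxidative phosphorylation makes most of the ATP of a resting cell in the inner mitochondrial membrane. Complex I oxidises NADH and complex II oxidises succinate, and both pass electrons to ubiquinone. Complex III hands the electrons to cytochrome c and complex IV hands them to oxygen, and complexes I, III and IV pump protons, whose return flow turns the rotor of complex V, the ATP synthase. Brown fat and skeletal muscle carry many mitochondria, and some subunits of complex IV have isoforms particular to heart and muscle or to other tissues.

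As a share of all named FPKM, the 82 members together held 5.88% to 7.08% in Normal and 4.16% to 4.89% in Tumor, with no overlap. In the other set the share was 3.09% to 3.59% in DMSO and 3.04% to 3.43% in C646, and these ranges overlapped. Across the members, Pearson's r between samples of a group, on the log2 scale, was at least 0.922 in every group. None of the 13 mitochondrially encoded subunits on the list checked had a row. Read numbers are not part of the tables, so depth and counting error are unknown. All 8 luminal epithelial markers listed were measured, and their summed FPKM was 474 to 998 in Normal and 3414 to 4608 in Tumor. Of these, 7 were called higher, and Krt19 was not called (log2 fold change 0.30). Markers of other cells also differed between these groups. The basal and myoepithelial markers split. Krt14 (1.56) and Trp63 (1.31) were called higher in Tumor on the log2 scale, Acta2 (-2.75) and Myh11 (-4.19) lower, and Krt5 was not called. The 4 of them measured in both sets summed to 136 to 233 FPKM in Normal and 54.9 to 105 in Tumor. A marker of the 5 listed had no row in DMSO and C646 and is left out, so this sum does not describe the whole list. The 8 white adipocyte markers summed to 26519 to 33331 FPKM in Normal and 124 to 2496 in Tumor, where Tumor 1 was the highest. The 7 brown adipocyte markers, which include Cox7a1 and Cox8b, summed to 2034 to 4619.6 in Normal and 61.5 to 540.4 in Tumor, again with Tumor 1 the highest. In every Normal and Tumor sample Cox7a1 and Cox8b, which belong to heart and muscle as well, made up most of this sum. The 8 skeletal muscle markers went the other way, from 12.0 to 105 FPKM in Normal and from 1968 to 6200.4 in Tumor. The markers of lymphocytes summed to 263 to 337 in Normal and 0.549 to 1.52 in Tumor, those of endothelium to 106 to 134 and 16.7 to 24.6, and those of macrophages to 112 to 136 and 32.3 to 50.5. In DMSO and C646 the luminal sum was 3402 to 3959.7 and 3143 to 3729. White adipocyte markers summed to 13.5 to 73.8 in DMSO and 96.9 to 616 in C646, with no overlap, and none of the 7 of them tested was called. Brown adipocyte markers summed to 29.7 to 45.6 in DMSO and 31.6 to 57.9 in C646. The part of these cells in the values that follow was not tested. In bulk tissue, fewer cells of a type and less RNA per cell cannot be told apart.

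In tumors, all 4 genes of complex II, 5 of 9 of complex III and all 3 core genes of the N module of complex I were lower than in normal gland. In complex V 3 of 16 genes were higher and, in FPKM as deposited, none passed the test as lower. To be tested, a gene had to reach 1 FPKM in 3 or more of the samples compared. Of the 80 members tested, 22 were lower in Tumor and 5 were higher at an adjusted p under 0.05 (limma on log2 of FPKM plus 0.03125, Benjamini-Hochberg over all 13031 genes tested). Over all genes tested, 60.5% passed the test, with 31.7% lower and 28.8% higher. In FPKM as deposited, the members' count of higher genes was thus below the background and their count of lower genes was near it. A log2 fold change below 0 was seen in 61 of the 80 members, while 49.4% of all genes tested were above 0. The median log2 fold change over the 82 members was -0.42, beside -0.02 over all genes tested. The groups did not overlap in 27 members that were lower and 5 that were higher, where 35.8% and 33.1% of all genes tested did not overlap. With samples scaled to an equal sum the calls were 55 lower and 3 higher, and with quantile normalization 51 lower and 3 higher. The share of all genes tested that was called under either scaling was not computed, so these counts have no background beside them. Each of the 22 members called lower was called lower under both scalings. Scaling moved the median of all genes tested by -0.27 (equal sums) and 0.13 (quantile) on the log2 scale.

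**Figure D1:**
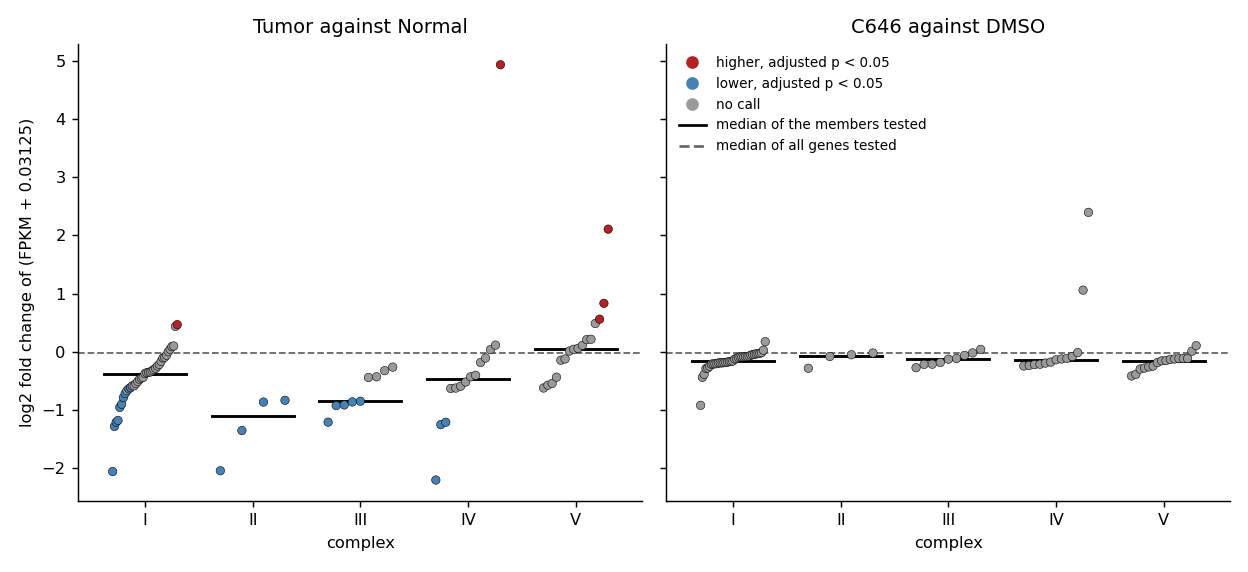
Log2 fold change of each member tested, by complex, for Tumor against Normal (left) and C646 against DMSO (right). Each point is 1 gene, ordered within its complex, solid bars are medians over the members tested and the dashed line is the median of all genes tested. In the left panel all 4 points of complex II and 5 of 9 of complex III are called lower, and in the right panel no point is called. The topmost point on the right is Cox6a2, which was listed at 0 in 3 of those 6 samples.

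The samples themselves differed across most members. Normal 1 was the lowest of the Normal samples in 72 of 80 members, Tumor 1 was the highest of the Tumor samples in 62 and Tumor 3 the lowest in 67. Tumor 3 was the lowest of all 6 samples in 56 members. The count of members called lower was 41 without Tumor 1 and 14 without Normal 2 or without Normal 3. The share of all genes called in those fits was not computed. Of the 22 calls, 13 held whichever of the 6 samples was left out.

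With FPKM as deposited, 10 of 37 members of complex I were called lower and 1 higher, and the median log2 fold change was -0.37. Lower calls over all members rose from 22 to 55 with equal sums and to 51 with quantile normalization. How many of all genes tested were called under these scalings was not computed. The 3 core subunits of the N module, which takes electrons from NADH, were all called lower. Ndufs1, the largest iron-sulfur subunit, measured 84.9, 113 and 140.5 FPKM in Normal 1, 2 and 3 and 22.6, 32.8 and 25.2 in Tumor 1, 2 and 3. All 3 tumors lay far below the lowest normal sample, and the log2 fold change was -2.06 ± 0.22 (SE, adjusted p = 0.000254). Ndufv1, which carries the flavin that accepts electrons from NADH, measured 215, 332 and 295 in Normal and 141, 111 and 93.0 in Tumor. These groups did not overlap either, and Ndufv1 was lower by a log2 fold change of -1.28 ± 0.23 (SE, adjusted p = 0.00219). Ndufv2, the third N module core subunit and also an iron-sulfur protein, measured 133, 182 and 202 in Normal and 131, 103 and 101 in Tumor, with Tumor 1 close to Normal 1. Its log2 fold change was -0.62 ± 0.20 (SE, adjusted p = 0.0297), and the call was lost without Normal 2 or 3 or Tumor 2 or 3 (adjusted p of 0.0798 to 0.114).

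The Q module passes the electrons on to ubiquinone. Ndufs3, a core subunit of it, measured 171, 247 and 236 FPKM in Normal and 139.5, 108 and 102 in Tumor. These groups did not overlap, and the log2 fold change was -0.90 ± 0.20 (SE, adjusted p = 0.00627). For Ndufs7 and Ndufs8, iron-sulfur subunits of this module, the groups overlapped, and neither passed the test (log2 fold change -0.28 ± 0.30, SE, adjusted p = 0.44, and -0.34 ± 0.28, SE, adjusted p = 0.311). Among accessory subunits, Ndufs4 (-0.64), Ndufa9 (-0.79), Ndufa1 (-0.71) and Ndufb3 (-0.95) were called lower on the log2 scale. Ndufb3 was the only 1 of 10 Ndufb members called with FPKM as deposited, and these members belong to the membrane arm. The Ndufb members ranged from -0.95 to 0.44, and their median was -0.34.

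Ndufa4, the most abundant member named Nduf in FPKM, measured 893, 1210.2 and 1129.9 in Normal and 1019.6, 812 and 784 in Tumor. These groups overlapped, and the log2 fold change of -0.30 had a 95% interval of -0.80 to 0.19 (adjusted p = 0.244). Its paralog Ndufa4l2, known as a hypoxia-inducible gene, was far less abundant, with 7.62, 6.25 and 6.15 in Normal and 2.89, 4.45 and 1.81 in Tumor. It was called lower, with a log2 fold change of -1.21 ± 0.32 (SE, adjusted p = 0.0142), though the adjusted p was 0.203 in the fit of all 12 samples and 0.0520 without Normal 1. Ndufc2, a membrane arm subunit, was the only complex I member called higher (not under either scaling, adjusted p of 0.182 and 0.0990), at 191, 231 and 219.7 in Normal and 317, 329 and 247 in Tumor. Its log2 fold change was 0.47 ± 0.17 (SE, adjusted p = 0.0461), and the adjusted p was between 0.0758 and 0.160 without Normal 1, 2 or 3 or Tumor 1 or 2. The lower calls of Ndufs1, Ndufv1 and Ndufs3 held with any 1 sample left out. Those of Ndufa1 and Ndufb3 were lost without Normal 2, Normal 3, Tumor 2 or Tumor 3 (adjusted p of 0.0921 to 0.131 for Ndufa1 and 0.0524 to 0.0691 for Ndufb3). Those of Ndufs4 and Ndufa9 were lost without Normal 2, Normal 3 or Tumor 3 (0.0539 to 0.0699 and 0.0516 to 0.0693).

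Every gene of complex II was lower in Tumor, and complex II had the lowest median of the 5 complexes, -1.11 on the log2 scale. Complex II is also an enzyme of the citric acid cycle, succinate dehydrogenase. Sdha, its flavoprotein, measured 307, 398 and 475 FPKM in Normal 1, 2 and 3 and 99.0, 105 and 79.9 in Tumor 1, 2 and 3. The highest tumor was below the lowest normal sample by far, and the log2 fold change was -2.04 ± 0.20 (SE, adjusted p = 0.000169), which is 4.12-fold. Sdhb, the iron-sulfur subunit, measured 324, 519 and 479 in Normal and 229.8, 156 and 135 in Tumor. It was lower by a log2 fold change of -1.35 ± 0.26 (SE, adjusted p = 0.00348), again with no overlap. The fold changes of the membrane anchors were smaller in size, a difference between subunits that was not tested. Sdhc measured 183, 258 and 258 in Normal and 149.8, 119 and 113 in Tumor, with a log2 fold change of -0.86 ± 0.19 (SE, adjusted p = 0.00671). Sdhd measured 183, 281 and 254 in Normal and 136, 137 and 124 in Tumor, with a log2 fold change of -0.83 ± 0.19 (SE, adjusted p = 0.00644). These 4 calls held when any 1 of the 6 samples was left out.

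The upstream sequences of 3 of these genes are shown because all of complex II was lower together, and no promoter was matched for Sdhc. They are 5′ to 3′ on the strand of the gene, from RefSeq on GRCm38.p6, and end before the first base that either RefSeq or GENCODE places in the gene. Capitals mark matches on either strand to CCAAT (NF-Y), GGGCGG (SP and KLF factors), CCGGAAG (ETS factors such as GABP), CATGCGC (NRF1), ATGGCGGC (YY1) or AAGGTCA (ERR receptors). Sdha covers chr13:74350281-74350490 (minus strand, 210 bases), Sdhb chr4:140961021-140961202 (plus strand, 182 bases) and Sdhd chr9:50603850-50604099 (minus strand, 250 bases). The capitals show 1 CCAAT match in Sdha, 3 GGGCGG matches in Sdhb and 1 CCGGAAG match in Sdhd. In windows that run on to 50 bases past the RefSeq start, Sdhb and Sdhd both held CCGGAAG and GGGCGG, and Sdha and Sdhb both held CCAAT.
Sdha: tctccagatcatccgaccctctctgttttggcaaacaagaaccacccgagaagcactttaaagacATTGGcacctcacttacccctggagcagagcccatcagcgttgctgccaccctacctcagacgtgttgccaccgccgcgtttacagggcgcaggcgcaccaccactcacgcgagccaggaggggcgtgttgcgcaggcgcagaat
Sdhb: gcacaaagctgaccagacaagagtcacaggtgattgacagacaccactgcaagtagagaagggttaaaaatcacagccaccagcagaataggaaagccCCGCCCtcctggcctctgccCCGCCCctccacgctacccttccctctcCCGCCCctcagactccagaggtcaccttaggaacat
Sdhd: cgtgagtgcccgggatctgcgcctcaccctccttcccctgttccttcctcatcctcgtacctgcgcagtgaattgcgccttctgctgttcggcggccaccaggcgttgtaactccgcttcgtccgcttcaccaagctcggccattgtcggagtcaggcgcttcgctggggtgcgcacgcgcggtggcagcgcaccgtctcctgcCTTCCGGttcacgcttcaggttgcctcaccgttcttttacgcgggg

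In complex III both core proteins and both redox proteins listed were called lower. All 9 members were below 0 on the log2 scale and 5 were called lower, and the median was -0.85. Uqcrc2, a core protein, measured 215, 320.2 and 338 FPKM in Normal and 124, 138 and 111 in Tumor. Its groups were well apart, with a log2 fold change of -1.21 ± 0.21 (SE, adjusted p = 0.00187). Uqcrc1, the other core protein, measured 327, 516 and 445 in Normal and 259, 229 and 185 in Tumor, and was lower by a log2 fold change of -0.92 ± 0.22 (SE, adjusted p = 0.00866). Cyc1, the cytochrome c1 that passes electrons to cytochrome c, measured 339.9, 513 and 466 in Normal and 231, 287 and 205 in Tumor. The log2 fold change of Cyc1 was -0.86 ± 0.21 (SE, adjusted p = 0.0105). Uqcrfs1, the Rieske iron-sulfur protein, measured 249, 429.9 and 404 in Normal and 204, 213 and 170.2 in Tumor, with a log2 fold change of -0.85 ± 0.24 (SE, adjusted p = 0.0164). Among the small subunits, Uqcrq was called lower (-0.91), and Uqcr10, Uqcrh, Uqcrb and Uqcr11 overlapped between the groups, at log2 fold changes of -0.44, -0.43, -0.32 and -0.26. The call of Uqcrfs1 was lost without Normal 2, Normal 3 or Tumor 3 (adjusted p of 0.0513 to 0.0667), and that of Uqcrq without these or Tumor 2 (0.0574 to 0.0756).

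With FPKM as deposited, complex IV, cytochrome c oxidase, showed few calls among its common subunits and larger differences among its tissue-restricted isoforms. Of 14 members tested, 3 were called lower and 1 higher, and the median over all 16 was -0.42. Cox7b2 and Cox8c, isoforms of the testis, were listed at 0 in all Normal and Tumor samples. Cox4i1, the common form of subunit 4, measured 1514, 2221 and 1825 FPKM in Normal and 1834, 1394 and 1039 in Tumor. These groups overlapped, and the log2 fold change was -0.40 ± 0.28 (SE, adjusted p = 0.247). Cox5a measured 392, 566 and 532 in Normal and 375, 389.8 and 237 in Tumor, which did not overlap, but its log2 fold change of -0.59 had an adjusted p of 0.0769 by limma. Cox5b (-0.43, adjusted p = 0.193), Cox7b (-0.52, adjusted p = 0.0606) and Cox8a (-0.63, adjusted p = 0.0711) did not pass the test either. Cox6c was the only common subunit of complex IV called with FPKM as deposited. It measured 1120.4, 1649 and 1412 in Normal and 713, 556 and 488 in Tumor, with a wide gap between the groups, and its log2 fold change was -1.25 ± 0.23 (SE, adjusted p = 0.00284).

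**Figure D2:**
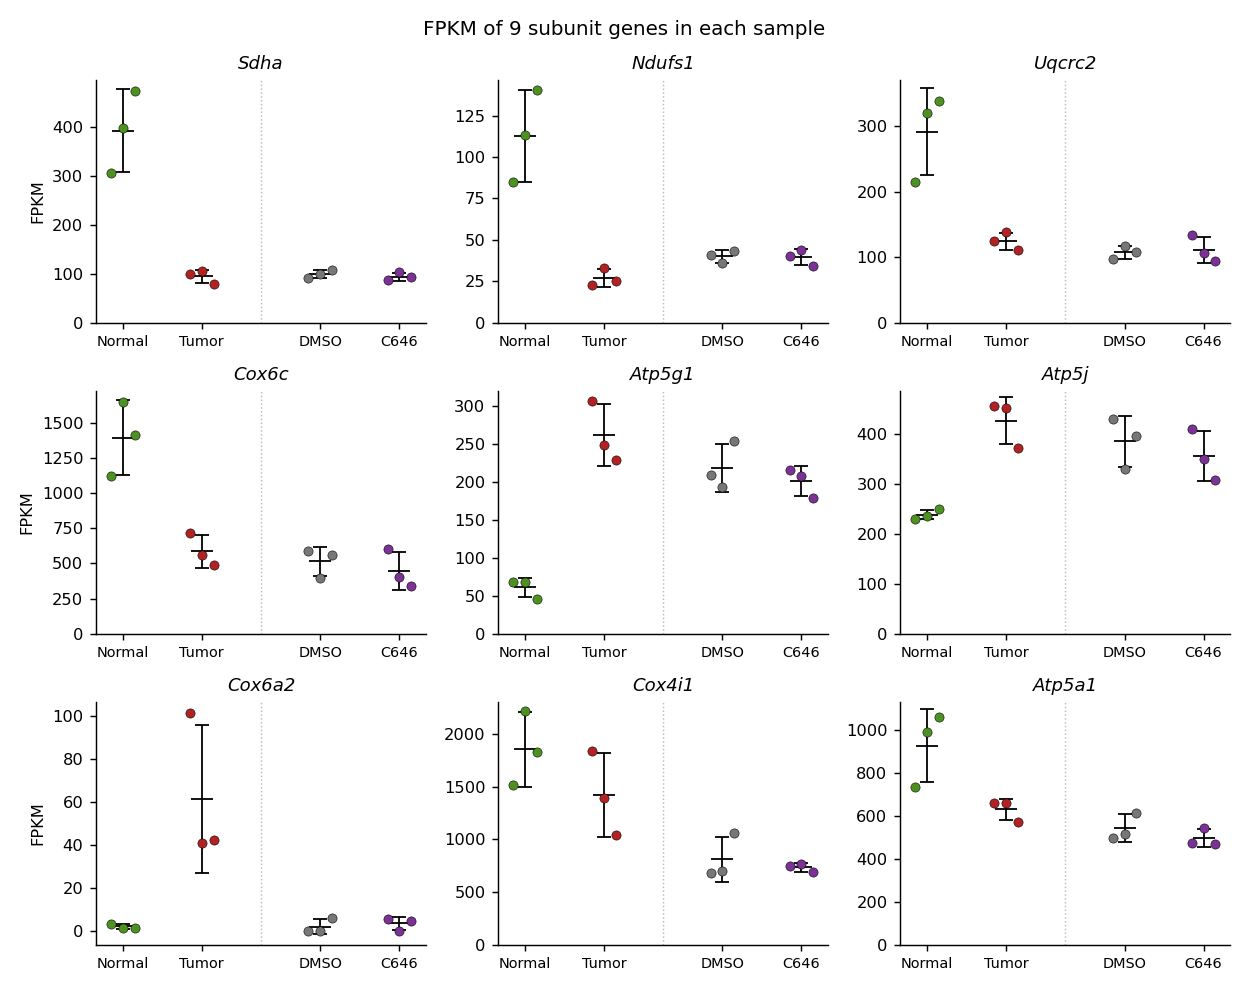
FPKM of 9 members in each of the 12 samples, on linear axes. Points are samples 1, 2 and 3 from left to right, bars are the mean ± SD of 3 samples, and the dotted line parts the 2 sets of tables, which list different genes. Sdha, Ndufs1, Uqcrc2 and Cox6c are lower in all 3 Tumor samples than in any Normal sample, as is Atp5a1, while Atp5g1, Atp5j and Cox6a2 are higher and Cox4i1 overlaps.

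Among the tissue-restricted isoforms Cox6a2 was higher in Tumor and Cox4i2 and Cox6b2 were lower. Cox6a2, the form of subunit 6a in heart and skeletal muscle, measured 3.34, 1.22 and 1.42 FPKM in Normal and 101, 40.6 and 42.2 in Tumor. The lowest tumor was many times the highest normal sample, and the log2 fold change of 4.93 ± 0.48 (SE, adjusted p = 0.000154) was the largest of all members in either direction. Cox6a1, the form of most tissues, measured 1259.9, 1821 and 1524 in Normal and 1339.8, 951 and 752 in Tumor, and the groups overlapped (-0.62, adjusted p = 0.0849). As a share of both forms, Cox6a2 was 0.141% ± 0.107 in Normal and 5.48% ± 1.47 in Tumor (SD, n = 3; exact permutation test, two-sided p = 0.1, the smallest that 3 against 3 allows). Beside it, all 8 skeletal muscle markers were above 1 FPKM in every Tumor sample, and their sum was highest in Tumor 1 (6200.4 FPKM), where Cox6a2 was highest too. The part of muscle RNA in the Cox6a2 value was not tested. Cox4i2, the form of subunit 4 known from lung and low oxygen, measured 5.14, 6.42 and 5.53 in Normal and 1.84, 2.08 and 0.449 in Tumor. It was lower by a log2 fold change of -2.20 ± 0.54 (SE, adjusted p = 0.01). In the fit of all 12 samples the adjusted p was 0.0639 for Cox4i2 and 0.0665 for Cox6a2. Cox6b2, the testis form of subunit 6b, measured 11.6, 10.7 and 11.5 in Normal and 8.17, 2.73 and 5.10 in Tumor, and was called lower (-1.21, adjusted p = 0.0228), a call lost without any 1 of the Normal samples (adjusted p of 0.0560 to 0.0677). Its common partner Cox6b1 overlapped between the groups (0.12, adjusted p = 0.713).

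In complex V 3 of 16 members were called higher and none lower in FPKM as deposited. With samples scaled to an equal sum or by quantiles 5 were called lower and 2 higher. The count called lower was 2 without Normal 1 and 3 without Tumor 1. How many of all genes tested were called in these other fits was not computed, so the counts have no background beside them. The median log2 fold change of complex V, 0.05, turned to -0.20 with equal sums and to -0.11 with quantile normalization. Both genes described for subunit c, which forms the rotor ring, were higher, though Atp5g3 did not pass the test under either scaling (adjusted p of 0.0748 and 0.147). Atp5g1 measured 68.5, 68.3 and 46.3 FPKM in Normal 1, 2 and 3 and 307, 249 and 228 in Tumor 1, 2 and 3. All tumors were more than 3 times the highest normal sample, and the log2 fold change was 2.11 ± 0.20 (SE, adjusted p = 0.000153), which is 4.31-fold. Atp5g3, which encodes the same mature protein behind another import signal, was more abundant, with 619, 670.5 and 632 in Normal and 1025, 1046 and 787 in Tumor. Its log2 fold change was 0.56 ± 0.19 (SE, adjusted p = 0.0327), a call that was lost without Normal 1, 2 or 3 or Tumor 1 or 2 (adjusted p of 0.0573 to 0.119). Atp5g1 made up 8.68% ± 1.64 of the 2 genes' FPKM in Normal and 21.6% ± 2.06 in Tumor (SD, n = 3; exact permutation test, two-sided p = 0.1, the smallest possible).

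Among the 4 peripheral stalk genes of complex V, Atp5j, coupling factor 6, measured 230.4, 235 and 249 FPKM in Normal and 456, 451 and 372 in Tumor. The Normal samples were close together and every tumor was higher, and the log2 fold change was 0.83 ± 0.15 (SE, adjusted p = 0.00244). Atp5h measured 388, 471 and 478 in Normal and 671, 382 and 938 in Tumor, a spread among tumors that covered the Normal range (0.49 ± 0.32, SE, adjusted p = 0.227). Atp5o (0.21) and Atp5f1 (0.06) overlapped between the groups. None of the 5 genes of the catalytic F1 head passed the test with FPKM as deposited. Atp5b, the catalytic beta subunit, measured 1236, 1782 and 1832 in Normal and 1169, 1084 and 874 in Tumor. All tumors were below all normal samples, and the log2 fold change of -0.62 ± 0.24 (SE) had an adjusted p of 0.0564. Atp5a1, the alpha subunit, measured 734, 988 and 1058 in Normal and 658, 660.3 and 571 in Tumor, likewise with no overlap and a log2 fold change of -0.54 ± 0.20 (SE, adjusted p = 0.0504). Atp5c1, the gamma subunit that forms the central shaft, measured 245, 285 and 308 in Normal and 280.0, 316 and 266 in Tumor, and its log2 fold change of 0.04 had a 95% interval of -0.32 to 0.41 (adjusted p = 0.824). The small membrane subunits Atp5j2, Atp5k and Atp5l lay between -0.44 and 0.01 with overlapping groups. The 3 names that are no subunit did not pass the test, with log2 fold changes of -0.57 for Atp5s, -0.12 for Atp5sl and -0.11 for Cox7a2l.

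The upstream sequences of the 2 complex V genes with the largest rise are given in the same way, beside those of complex II. Atp5g1 covers chr11:96075671-96075881 (minus strand, 211 bases) and Atp5j chr16:84835626-84835875 (minus strand, 250 bases, the farther upstream of its 2 RefSeq starts). The Atp5g1 window holds 5 CCAAT matches, of which a pair overlaps on opposite strands, and the Atp5j window holds 1 GGGCGG match.
Atp5g1: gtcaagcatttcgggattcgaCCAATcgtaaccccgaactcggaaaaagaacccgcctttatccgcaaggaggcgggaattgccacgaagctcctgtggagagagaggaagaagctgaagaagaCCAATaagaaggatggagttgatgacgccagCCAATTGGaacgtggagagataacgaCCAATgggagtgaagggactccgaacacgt
Atp5j: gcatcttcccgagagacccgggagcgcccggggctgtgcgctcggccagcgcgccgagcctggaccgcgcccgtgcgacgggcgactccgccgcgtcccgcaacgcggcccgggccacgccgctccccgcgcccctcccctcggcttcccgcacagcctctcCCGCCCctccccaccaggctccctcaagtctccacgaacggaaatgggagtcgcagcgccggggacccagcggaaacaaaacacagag

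Ratios within a sample do not change when all its values are multiplied by the same factor, as with equal sums. Quantile normalization can change them, and they were not computed under it. The summed FPKM of complex V over that of complex II was 6.55 to 7.95 in Normal and 17.1 to 19.2 in Tumor. The same ratio over complex III was 1.63 to 1.77 in Normal and 2.44 to 3.02 in Tumor. Neither ratio overlapped between the groups. Within complex I, the summed N module core over the summed Ndufb members was 0.149 to 0.180 in Normal and 0.0797 to 0.0934 in Tumor. Thus the make-up of the transcripts differed between the tissues in these ratios, and not only their total. The parts were chosen with earlier results of these samples known, so the ratios restate the values above and are not separate support. In the second set the ratio of complex V to complex II was 13.4 to 14.2 in DMSO and 12.8 to 13.6 in C646, and these overlapped.

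**Figure D3:**
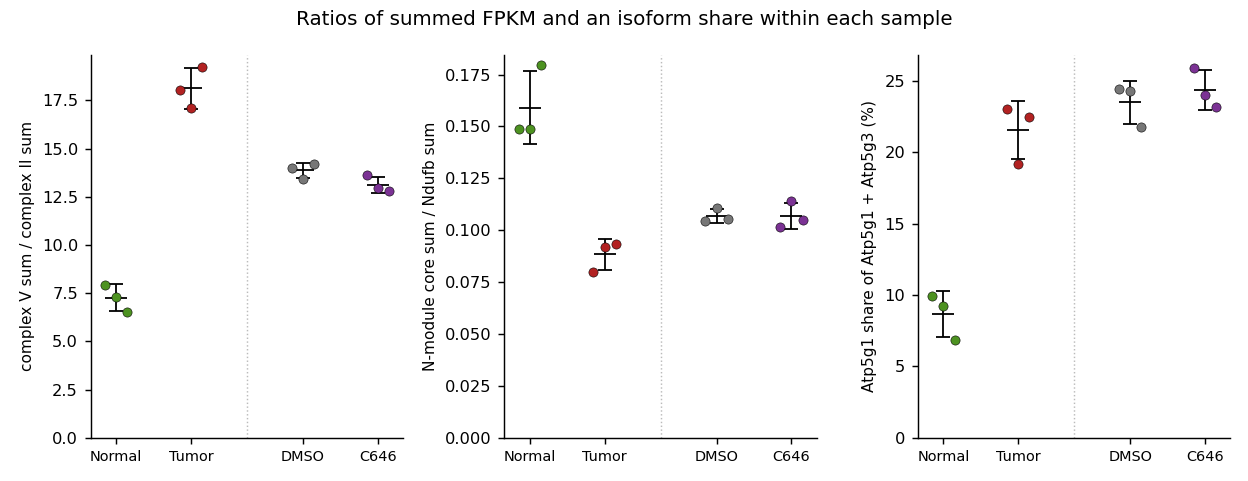
Ratios of summed FPKM within each sample (left and middle) and the Atp5g1 share of Atp5g1 plus Atp5g3 in percent (right). Points are samples, bars are the mean ± SD of 3 samples, and the dotted line parts the 2 sets of tables. All Tumor samples are above all Normal samples in the left and right panels and below them in the middle panel, while DMSO and C646 overlap in all 3.

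Many subunit transcripts are short, so members were set beside genes of like length. The length of the longest protein-coding transcript in GENCODE was found for 79 of the 80 members tested. Among all genes tested with a transcript under 750 bases the median log2 fold change was 0.34 (n = 253), and among the 31 members of that length it was -0.36. From 750 to 1500 bases the medians were 0.37 for all genes and -0.33 for 27 members, and from 1500 to 3000 bases 0.10 and -0.64 for 17 members. Over 3000 bases the order was the other way, with -0.18 for all genes and -0.05 for 4 members. From the shortest to the longest of the bins under 3000 bases, the share of members called lower was 12.9%, 25.9% and 58.8%, and that of all genes tested was 16.2%, 23.3% and 30.2%. Those called higher were 3 of 31, 1 of 27 and 0 of 17 members, against 39.9%, 41.8% and 33.4% of all genes tested. Over 79 members Spearman's rho between log2 fold change and length was -0.27, and over all 11850 genes tested with a length it was -0.17. Both describe genes that share the same 6 samples.

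**Figure D4:**
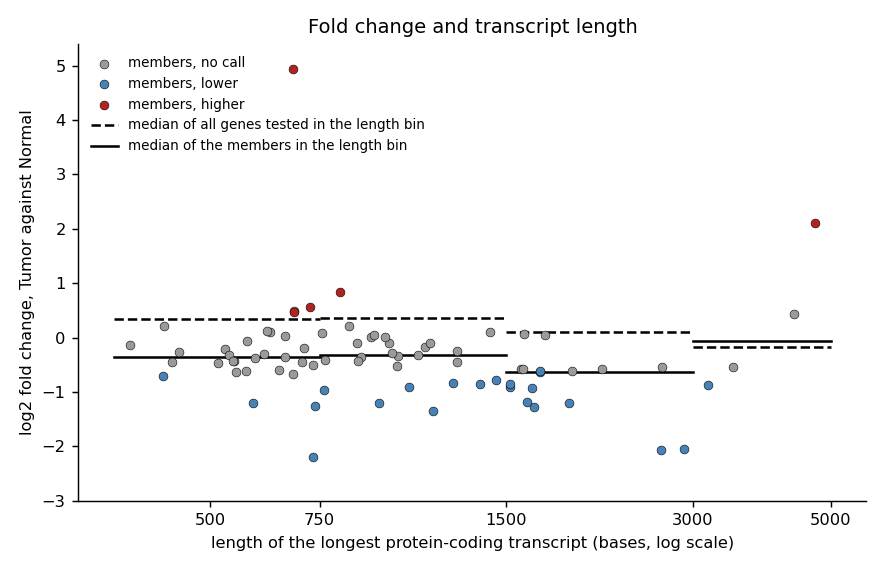
Log2 fold change of 79 members, Tumor against Normal, against the length of the longest annotated protein-coding transcript (log axis), which need not be the transcript expressed. Points are genes coloured by call, solid bars are the members' medians and dashed bars the medians of all genes tested in 4 length bins. In the bins under 3000 bases the members' median is below that of all genes tested of like length, and over 3000 bases it is above.

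Other mitochondrial genes were counted from lists for comparison. Over all genes tested in Tumor against Normal, 31.7% were called lower and 28.8% higher. Of 15 citric acid cycle genes tested, 14 were lower and none higher, with a median log2 fold change of -1.86. All 15 fatty acid oxidation genes tested were lower, with a median of -2.09, led by Hadhb of the trifunctional protein (-3.37). Of 12 carriers, 7 were lower and 1, Ucp2, was higher (1.41), and Cycs, the mobile electron carrier between complexes III and IV, was among the lower ones (44.5, 75.3 and 73.8 FPKM in Normal and 18.1, 24.7 and 17.9 in Tumor). Of 43 assembly factors tested, 16 were lower and 2 higher, with a median of -0.26, from Foxred1 (-1.93) to Coa3 (0.68), all in FPKM as deposited. Import and membrane proteins had 6 of 17 higher and 4 lower, with a median of 0.19, from Mfn2 (-1.80) to Tomm40 (0.76). Of 12 regulators tested, 5 were lower and 2 higher, and Ppargc1a, which encodes the coactivator PGC-1α of mitochondrial genes, measured 1.35, 1.42 and 2.09 in Normal and 0.274, 0.377 and 0.679 in Tumor (log2 fold change -1.86, adjusted p = 0.00658 by limma). Ppara was the lowest regulator (-6.17) and Pprc1 the highest (0.86). For assembly factors the share called lower was near that of all genes tested, and the share called higher was far below that of all genes. Regulators, a list of 12, had a larger share called lower than all genes, and import and membrane proteins, a list of 17, a smaller share. The share called lower was above that of all genes for carriers, and far above for the citric acid cycle and fatty acid oxidation. The excluded isoforms Cox7a1 and Cox8b belong to heart, muscle and brown fat. Cox7a1 measured 217, 618 and 434 in Normal and 148, 31.3 and 32.5 in Tumor, and Cox8b 1036, 2304 and 1521 in Normal and 274, 21.4 and 33.1 in Tumor, with Tumor 1 the highest tumor in both.

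Promoter windows of 300 bases, from 250 before to 50 after a RefSeq start on GRCm38.p6, were matched for 66 of the 82 members. The NRF1 letters CATGCGC were in 18.2% of these members, in 7.53% of the genes that passed the filter in either comparison and in 4.41% of all genes with a window, both strands searched. The shares for the YY1 letters ATGGCGGC were 10.6%, 5.29% and 2.60%, and 6 of the 7 members that held them were in complex I. The ERR letters AAGGTCA were in 12.1%, 4.03% and 5.38%, and the ETS letters CCGGAAG in 24.2%, 19.1% and 9.93%. GGGCGG was in 40.9% of members against 67.8% of the genes that passed the filter and 38.2% of all genes with a window, and CCAAT in 45.5% against 42.3% and 41.1%. NRF1 letters were in 2 of 13 matched members called lower and in 10 of 48 without a call. Such matches describe letters in a window and are not sites of binding.

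C646 against DMSO gave no call among the members. Of 79 members tested, 0 passed an adjusted p of 0.05 by limma, and the percentage over all 12083 genes tested was 0. At an unadjusted p under 0.05, 2 members were lower and 1 higher, where 1.78% and 1.4% of all genes tested were. Cox7b2, Cox8c and Cox4i2 did not pass the filter here. A log2 fold change below 0 was seen in 72 of 79 members, with a median over the 82 of -0.14 beside -0.01 over all genes tested, of which 46.9% were above 0, but this changed with the scaling and without DMSO 3. The median was -0.03 without DMSO 3, with 45 of 78 members below 0, and 0.02 with quantile normalization, with 36 of 79. DMSO 3 was the highest of the 6 samples in 60 of 79 members, and C646 3 the lowest in 45. Without C646 3 the median was -0.07.

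**Figure D5:**
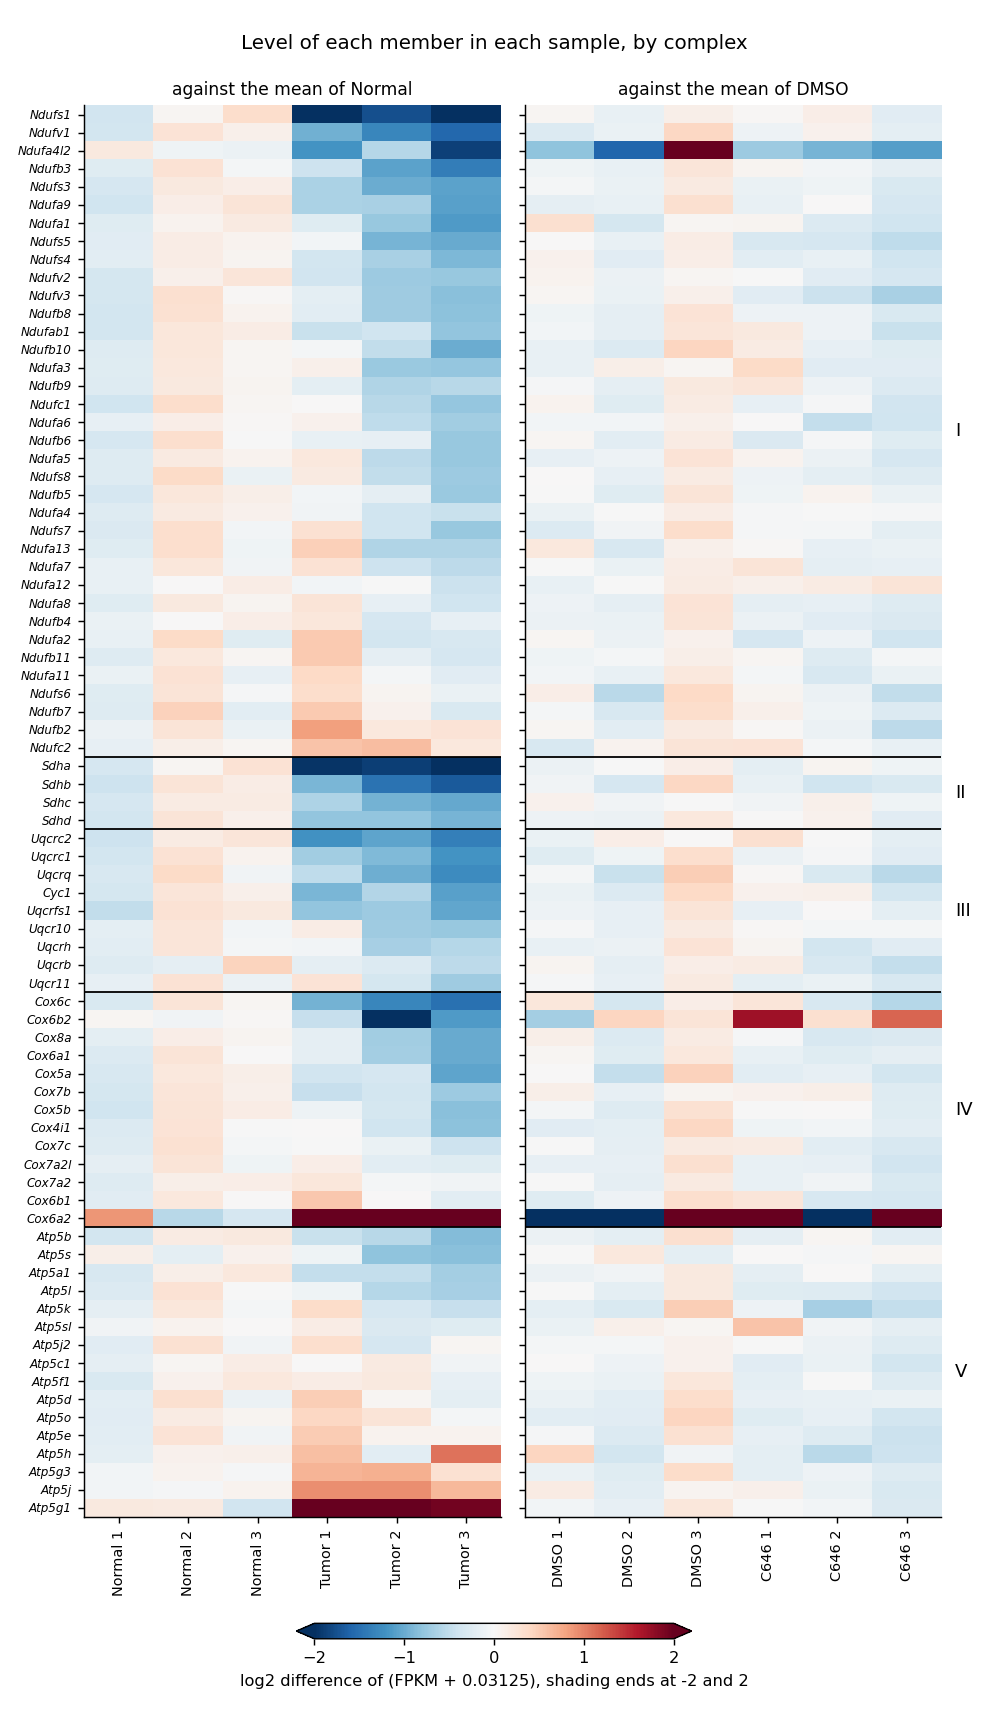
Log2 level of 78 members in each sample, less the mean of the Normal samples (left) or of the DMSO samples (right), with genes grouped by complex and ordered by their Tumor against Normal fold change. Red is higher and blue lower, and shading ends at a difference of 2. On the left the 3 Tumor columns are blue in complex II and at the top of complexes I and III, and on the right most rows of DMSO 3 are pale red.

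The members with the lowest unadjusted p in this comparison were Ndufs5, an accessory subunit of complex I, and Ndufv3, a small subunit of its N module. Ndufs5 measured 63.6, 57.0 and 70.2 FPKM in DMSO 1, 2 and 3 and 50.8, 50.3 and 44.5 in C646 1, 2 and 3, which did not overlap. Its log2 fold change was -0.39 ± 0.13 (SE, limma unadjusted p = 0.0196, adjusted p = 0.99). Ndufv3 measured 147, 130.1 and 153 in DMSO and 122, 106 and 91.0 in C646, also without overlap, with a log2 fold change of -0.44 ± 0.15 (SE, limma unadjusted p = 0.0213, adjusted p = 0.99). Atp5l and Atp5c1 were the other two tested members without overlap, both lower (-0.30 and -0.24), so 4 of 79 tested members were lower without overlap and 0 higher, where 4.52% and 4.04% of all genes tested were. The third member under an unadjusted p of 0.05 was Cox6b2, at 1.34, 2.94 and 2.62 in DMSO and 7.15, 2.72 and 4.92 in C646. Its groups overlapped.

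For 3 members with large differences between tumor and normal gland, the values in C646 and DMSO are set side by side. Sdha measured 91.0, 98.6 and 108 FPKM in DMSO and 86.2, 103 and 93.0 in C646, and the 95% interval of its log2 fold change was -0.38 to 0.22. Ndufs1 measured 40.9, 35.8 and 43.3 in DMSO and 40.4, 43.6 and 34.1 in C646, with an interval of -0.36 to 0.31. Atp5g1 measured 208, 192 and 253 in DMSO and 216, 208 and 178 in C646, with an interval of -0.48 to 0.25. In each of these 3 the groups overlapped. The Atp5g1 share of Atp5g1 plus Atp5g3 was 23.5% ± 1.52 in DMSO and 24.4% ± 1.39 in C646 (SD, n = 3). An exact permutation test gave a two-sided p of 0.6. Atp5g2, also a gene listed for subunit c, is not part of this share. By complex, the median log2 fold changes were -0.16 for complex I, -0.06 for complex II, -0.13 for complex III, -0.16 for complex IV and -0.15 for complex V, of which those of complexes II, III and IV were above 0 with quantile normalization and that of complex II also with samples scaled to an equal sum.

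Isoform values varied widely between single samples in this set. Cox6a2 measured 0, 0 and 5.77 FPKM in DMSO and 5.51, 0 and 4.76 in C646, so it was listed at 0 in DMSO 1, DMSO 2 and C646 2. The same 3 samples had skeletal muscle marker sums of 0.774, 1.69 and 2.58 FPKM, and the other three had 473 (DMSO 3), 451 (C646 1) and 396 (C646 3). Ndufa4l2 measured 1.84, 1.05 and 17.1 in DMSO and 1.95, 1.68 and 1.48 in C646, with DMSO 3 far above the rest. Cox4i2, too low to be tested, measured 1.25, 0.773 and 2.96 in DMSO and 0, 0.335 and 0.455 in C646, and all C646 samples were below all DMSO samples. Cox7b2 was at 0.528 in DMSO 2 and listed at 0 in the other five samples, and Cox8c was listed at 0 in all 6.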

How the data were processed

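Poly-A RNA of mammary tissue was sequenced from a non-directional library kit, so reads of a gene and of an antisense partner cannot be told apart. The authors removed adaptors, mapped the reads to mm10 with TopHat2 2.1.1 and computed FPKM with Cufflinks 2.2.1, and for each sample they deposited a table that pairs gene names with FPKM, as the submitters' processing notes and methods state. The handling of reads shared with pseudogenes or paralogs is not given in the sources used here, so levels of close copies such as Atp5g1 and Atp5g3 carry that doubt. Rows without a name were dropped, 1837 in each Normal and Tumor table with 3.41% to 4.56% of the summed FPKM, and rows of 1 name were summed (Atp5sl and Ndufa13 in the first set, Ndufa12 in the second).

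Each set was fitted by itself with the limma package (3.58.1, R 4.3.3, lmFit and eBayes with trend) after adding 0.03125 to FPKM and taking log2. Genes had to reach 1 FPKM in 3 or more of 6 samples, and p-values were adjusted by Benjamini-Hochberg over every gene tested. The added value shrinks fold changes of low genes, but with samples listed at 0 they can exceed the ratio of mean FPKM. Cox6a2 in C646 against DMSO was 5.27-fold on this scale and 1.78-fold by means. No p was computed over a list of members. Single shares were compared with the exact permutation test, whose smallest p for 3 against 3 is 0.1. The fitting step was tested on simulated data. Tables were handled in Python 3.11.15. The samples of a group are separate tumors or, for Normal, separate pools of mice. The limma p-values set the difference between groups against the spread between these samples, moderated across genes. In Tumor against Normal a shared variance covers pools of mice and single mice, which may spread differently.

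The members and gene lists were chosen with earlier results of these data known. The named members are core subunits, isoform pairs, the 2 largest called changes without overlap in each direction and complex, names that are no subunit, and the extreme called gene of each other list. Some genes that the rule names are not reported here. Members outside this rule were named after their values were seen. The alternatives were pseudocounts of 0.25 and 1, no filter, 3 other scalings, the highest row of a repeated name, a replicate block, 1 fit of 12 samples, a shorter member list and each sample left out. Relative depth was not used.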

Additional observations from a re-analysis of the deposited data

How the results depend on the processing

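For Tumor against Normal, the members called higher numbered 5 and were 3 without the filter, with samples scaled to an equal sum, with quantile normalization and with the replicate block, and from 3 to 5 with 1 sample left out. The members called lower numbered 22 and were 12 without the filter, 55 scaled to an equal sum, 51 with quantile normalization and 14 to 41 with 1 sample left out (14 without Normal 2 or Normal 3, 41 without Tumor 1). The cause of these moves was not tested, and the share of all genes called under each alternative was not computed. No called member changed direction under any alternative. The median of complex II was -1.36 scaled to an equal sum, and that of complex V was -0.20 there, with 0.05 in the reported fit and -0.07 to 0.13 with 1 sample left out. With 1 sample left out the median of all members ranged from -0.60 to -0.23.

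For C646 against DMSO no member was called under any alternative. The median of complex II was 0.061 scaled to an equal sum and 0.049 with quantile normalization, and from -0.13 to -0.02 with 1 sample left out. The median of all members ranged from -0.23 to -0.03 with 1 sample left out.

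Samples that share a number in the labels did not deviate together in every pair. Across genes, the correlation of same-numbered Tumor and Normal samples was -0.038, -0.098 and 0.010, and different-numbered ones ranged from -0.062 to 0.093. Same-numbered C646 and DMSO samples gave 0.175, 0.070 and 0.109, all above 0, and different-numbered ones ranged from -0.234 to 0.141. The numbers were not read as pairs in the reported fit. With the replicate block 19 members were called lower and 3 higher in Tumor against Normal, and 0 in C646 against DMSO. The depth is unknown, so its limit on low members such as Cox4i2 cannot be given.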
